A study of Arabidopsis thaliana with 17 samples.

Results

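Wild-type Arabidopsis thaliana roots were sequenced in a pair of sets in this study, and the sets, labelled Col-0 and Col-0-b, are compared here with each other: 3 libraries in each, 6 of the 17 samples of the series. Both sets carry the genotype Col-0, the standard laboratory accession, and both are mock-treated whole roots of 14-day-old plants from agar plates of half-strength Murashige and Skoog salts with 1% sucrose. The labels tell the sets apart only by the suffix b. Col-0 stands beside a line carrying HA-tagged NF-YA2, and Col-0-b beside bamboo (2 libraries, 14-day-old roots), named for the long non-coding RNA BAMBOO. How BAMBOO was changed in bamboo, whether the sets were grown or sequenced at different times, and whether replicates came from separate plants or plates were not stated by the labels, so p-values measure only the spread between these samples. The set and its deposited table coincide throughout, so a difference between plants, growth, library making or read counting cannot be told apart in any result below.

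Root RNA profiles follow the mineral supply, the water status, the hour of the day, handling and the mix of cell types as well as the genotype. Metal, nitrate, phosphate and sulfate uptake are each run by transporters whose genes are switched on when the element is short. The copper programme is well described in Arabidopsis: under low copper the transcription factor SPL7 turns on copper transporters, cupric reductases and the iron superoxide dismutase FSD1, while microRNAs lower the mRNAs of the copper superoxide dismutases CSD1 and CSD2 and of several other copper proteins.

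Reads counted per gene were 20946724, 21206367 and 13637179 in Col-0 replicates 1, 2 and 3, against 20743588, 16963843 and 20443584 in Col-0-b. All levels below are CPM, reads of a gene per 1000000 counted reads of its library, and replicates are always listed in the order 1, 2, 3. A difference is Col-0 minus Col-0-b on the scale log2(CPM + 1), which understates the change of genes of low level, and a fold is a ratio of mean CPM. Genes with at least 1 CPM in at least 3 of the 6 libraries were tested (19221 of 37336 features), and a gene is called when its Benjamini-Hochberg adjusted p, from limma over all 19221 genes, is under 0.05. Another 11578 features were listed at 0 in all 6 libraries. Among them were 13 genes of the lists used below, including MYC2, the central jasmonate transcription factor, and AMT1;1, an ammonium transporter (examples chosen after their values were seen), and a listed 0 is not read here as absent expression.

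The sets differed broadly. In Col-0, 4188 genes (21.8% of those tested) had higher levels and 3645 (19.0%) had lower levels, set against Col-0-b, so 40.8% of tested genes were called. Of these, 589 were higher and 517 lower by at least 2-fold (3.06% and 2.69% of tested genes, 5.75% in all), and 60 and 94 by at least 4-fold. The median difference over all tested genes was 0.01, and the median size of a difference 0.28, so most calls were small. The sets did not overlap in 10403 tested genes (54.1%). For scale, bamboo differed from the same Col-0-b libraries in 15 genes called higher (0.0780%) and 12 lower (0.0624%), with a median size of 0.11; that comparison has 2 libraries against 3, and without 1 of the Col-0-b libraries 4 to 18 genes were higher and 3 to 9 lower. Without bamboo replicate 3, 834 were higher and 1404 lower; this sets a single bamboo library against 3, with the spread taken from Col-0-b alone, and without bamboo replicate 2 there were 17 and 17.

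Col-0 libraries were also less alike among themselves. Across tested genes, which are not independent replicates, log2 levels correlated at 0.969 to 0.985 within Col-0 and at 0.9947 to 0.9955 within Col-0-b, at 0.943 to 0.948 between the sets, and at 0.986 to 0.995 between bamboo and Col-0-b. The first principal component of the 8 root libraries held 68.8% of the variance, with Col-0 at 45.9 to 48.3, bamboo at -27.8 and -23.9, and Col-0-b at -30.5 to -29.6. The second, with 13.8%, spread Col-0 out, with replicate 1 at 31.2, replicate 2 at 2.95 and replicate 3 at -33.5. The median standard deviation of a gene's log2 level was 0.164 in Col-0 and 0.0866 in Col-0-b. A standard deviation above 0.5 occurred in 1247 genes in Col-0 and 61 in Col-0-b. Of the 1247, Col-0 replicate 3, the library with the fewest reads, was the farthest from the other Col-0 libraries in 677 genes, replicate 1 in 510 and replicate 2 in 60.

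**Figure D1:**
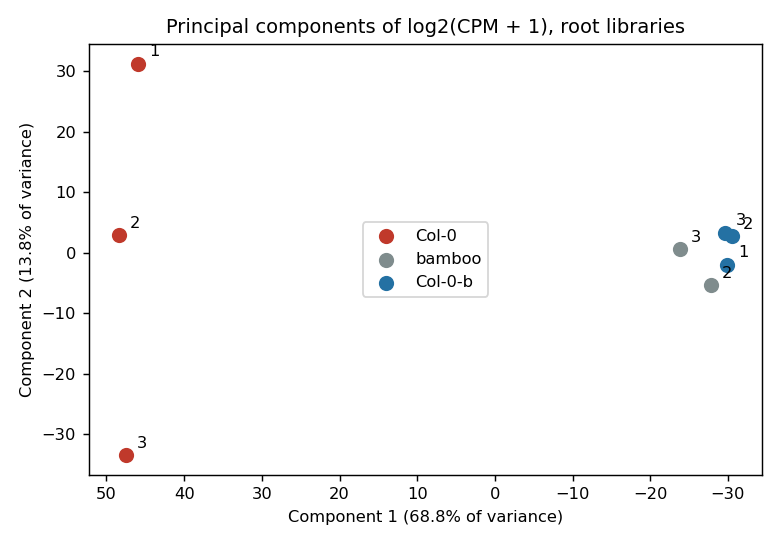
Each point is a root library on the first (x, 68.8% of variance) and second (y, 13.8%) principal components of log2(CPM + 1), coloured by group and numbered by replicate; the x axis runs from high to low. Col-0 lies at 45.9 to 48.3 on the first component, apart from bamboo and Col-0-b, and its 3 libraries are spread from 31.2 to -33.5 on the second.

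Most genes of the root identity list were not called between the sets. Of 18 root identity genes, all tested, 1 was called higher and 2 lower (16.7% called, beside 40.8% of all tested genes, median difference 0.01). The member called higher was MYB36. Its values, and those of the root hair and xylem lists, which had larger shares of called members, are given below. PYK10, a beta-glucosidase of roots, had 14492, 14829 and 14751 CPM in Col-0, against 13450.2, 13747 and 12831 CPM in Col-0-b, and SHR, a regulator of the root's inner cell layers, had 29.6, 37.0 and 37.4 CPM in Col-0, against 32.8, 33.4 and 37.2 CPM in Col-0-b. PYK10 was not called, although its sets did not overlap. Photosynthesis genes, which mark green shoot tissue, were low in both sets and highest in Col-0-b replicate 1. Their summed level (20 genes) was 147 to 159 CPM in Col-0 and 322, 185 and 173 CPM in Col-0-b. Of 15 tested, 1 was higher and 4 lower in Col-0 (33.3% called, beside 40.8% of all tested genes), with a median difference of -0.58 that became -0.25 without Col-0-b replicate 1. CAB1, a chlorophyll-binding antenna protein, had 5.20, 5.05 and 5.35 CPM in Col-0, against 21.8, 4.30 and 4.35 CPM in Col-0-b, so Col-0-b replicate 1 alone stood above the rest. CAB2, RBCS2B and LHCB2.2 were at or under 0.764 CPM in all libraries but that one. The part of shoot tissue in the results below was not tested.

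Ribosomal RNA reads came almost entirely from the Col-0-b libraries. The nuclear ribosomal RNA features together took 2.4e-05% to 8.6e-05% of the reads in Col-0, against 0.163% to 0.545% in Col-0-b. Nearly all of it was 1 feature annotated as ribosomal RNA, AT3G41768, with 6, 0 and 0 reads in Col-0, against 39798, 92209 and 33131 reads in Col-0-b. Mitochondrion-encoded features took 0.000613% to 0.00164% in Col-0 and 0.0688% to 0.196% in Col-0-b. The leading 2, the ribosomal RNA features ATMG00020 and ATMG01390, had 21, 11 and 18 and 22, 11 and 21 reads in the Col-0 libraries, against 8491, 19033 and 7897 and 5512, 11178 and 4748 reads in the Col-0-b libraries. They held most of the mitochondrial reads in Col-0-b, so that share does not stand for mitochondrial genes at large. Bamboo resembled Col-0-b here, with 0.0704% and 0.198% nuclear ribosomal RNA. For nuclear ribosomal RNA and for mitochondrial features Col-0 and Col-0-b did not overlap, and the exact permutation test of 3 against 3 libraries gave p = 0.1 for each, the smallest two-sided p it allows. Plastid-encoded features, at 0.000986% to 0.0221% in Col-0 and 0.0029% to 0.00894% in Col-0-b, overlapped (exact permutation p = 0.7). Removing all these features from the totals moved the median difference over genes only to 0.004, and left 99.1% of the calls in place.

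Copper genes were among the most widely separated of the protein-coding genes. Most genes of copper uptake were lower in Col-0, while the copper superoxide dismutases CSD1 and CSD2 were higher. The 2 copper lists used here were chosen after these values were seen, so their counts are descriptions. Of 11 genes of copper uptake and the low-copper response, 9 were called lower in Col-0 and 0 higher (81.8% called, beside 40.8% of all tested genes). Their median difference was -1.74, beside a median of 0.01 over all tested genes.

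FSD1 (AT4G25100), an iron superoxide dismutase, had 31.5, 35.6 and 45.5 CPM in Col-0, against 734, 716 and 703 CPM in Col-0-b (log2 difference -4.24, SE 0.12, adjusted p = 6.49e-07). The sets were far apart, by 19.1-fold in mean CPM with Col-0-b higher, and tight within themselves. The cupric and ferric reductase genes FRO5 (AT5G23990) and FRO4 (AT5G23980), neighbours of near-identical sequence between which reads may be split, had 0, 0.0943 and 0 and 1.43, 0.754 and 4.91 CPM in Col-0, against 71.8, 75.8 and 82.0 and 94.2, 74.4 and 87.4 CPM in Col-0-b. FRO5 thus rested on 2 reads over the whole Col-0 set, and its fitted difference of -6.23 depends on the pseudocount. The copper transporter of the plasma membrane COPT2 (AT3G46900) had 5.63, 7.78 and 11.5 CPM in Col-0, against 73.4, 83.5 and 66.9 CPM in Col-0-b (log2 difference -3.06, SE 0.21, adjusted p = 4.61e-05). ZIP2, a divalent metal transporter, had 35.7, 50.5 and 74.9 CPM in Col-0, against 343, 338 and 313 CPM in Col-0-b (-2.67, adjusted p = 0.000457), and YSL2, a metal-nicotianamine transporter, had 23.3, 24.8 and 28.5 CPM in Col-0, against 83.7, 94.3 and 84.8 CPM in Col-0-b (-1.74, adjusted p = 9.74e-06). In each of these the lowest Col-0-b library exceeded the highest Col-0 library. Smaller differences were seen for COPT6 (-1.50) and COPT1 (-0.75), further copper transporters, and for the copper chaperone CCH (-0.32), whose call was lost without Col-0 replicate 2 or Col-0-b replicate 2 or 3. The vacuolar exporter COPT5 had 47.9, 43.6 and 38.2 CPM in Col-0, against 44.1, 46.4 and 40.7 CPM in Col-0-b, and the regulator SPL7 itself had 82.0, 75.4 and 79.1 CPM in Col-0, against 77.1, 79.3 and 83.0 CPM in Col-0-b, with differences of -0.02 and -0.02.

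Among copper proteins, CSD1 (AT1G08830), the cytosolic copper/zinc superoxide dismutase, had 703, 669.5 and 529 CPM in Col-0, against 112, 112 and 130.02 CPM in Col-0-b (log2 difference 2.41, SE 0.11, adjusted p = 6.59e-06). Its plastid counterpart CSD2 (AT2G28190) had 164, 163 and 144 CPM in Col-0, against 76.4, 72.0 and 82.0 CPM in Col-0-b (log2 difference 1.02, SE 0.08, adjusted p = 3.66e-05), and their copper chaperone CCS had 74.5, 78.9 and 63.8 CPM in Col-0, against 33.6, 30.4 and 32.2 CPM in Col-0-b (1.15, adjusted p = 4.29e-05). The plantacyanin ARPN had 63.6, 66.0 and 56.9 CPM in Col-0, against 11.4, 12.3 and 11.3 CPM in Col-0-b (2.32, adjusted p = 1.96e-06). All 4 were higher in every Col-0 library than in any Col-0-b library. Not all copper proteins did so: of 14 tested, 4 were higher, 4 lower (2 without Col-0-b replicate 1) and 6 not called. The share called was 57.1%, beside 40.8% of all tested genes. Lower were the laccases LAC2 (-1.45), LAC4 (-0.56) and LAC17 (-0.30; call lost when any Col-0-b replicate was left out) and the plastocyanin PETE2 (-0.65; lost without Col-0-b replicate 1). The laccase LAC3 had 134, 151 and 135 CPM in Col-0, against 138, 149 and 134 CPM in Col-0-b, and HMA5, a copper-exporting ATPase, had 49.1, 43.3 and 47.4 CPM in Col-0, against 45.2, 45.2 and 46.7 CPM in Col-0-b.

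**Figure D2:**
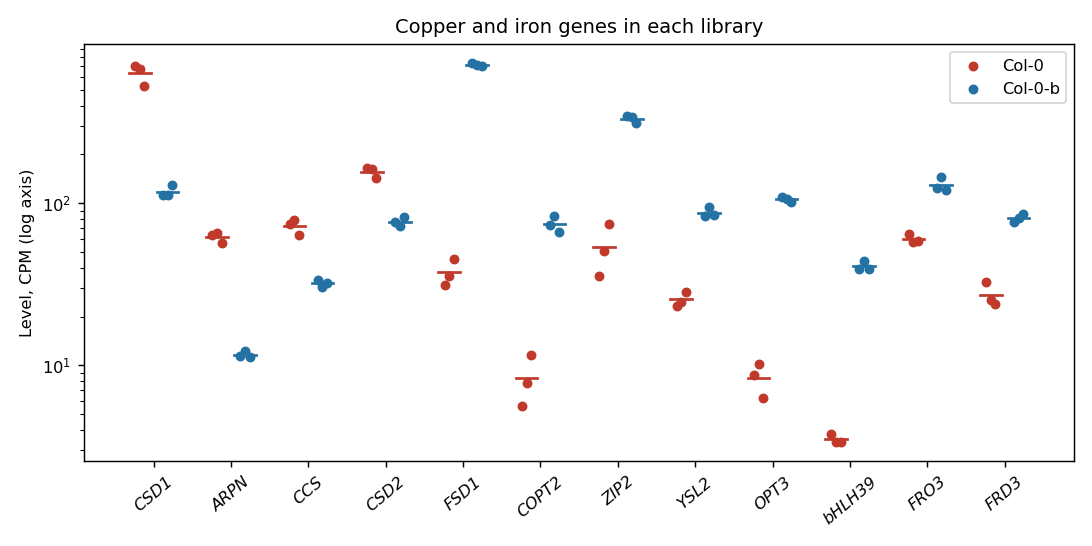
Level in CPM (log y axis) of 12 copper and iron genes in each library, with Col-0 (red) left of Col-0-b (blue); points are libraries in the order 1, 2, 3 and bars are means. CSD1, ARPN, CCS and CSD2 are higher in Col-0 and the other 8 genes lower, with no overlap of the sets. These genes were picked for the drawing and do not stand for their lists. Not drawn are, among others, the copper proteins LAC2, LAC4, LAC17 and PETE2, called lower, and COPT5, SPL7, LAC3, HMA5, IRT1, FRO2 and FIT, not called.

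Of 20 tested iron deficiency genes, 8 were lower in Col-0 and 0 higher (median difference -0.21). The share called, 40%, was near the 40.8% of all tested genes, and without Col-0-b replicate 2 the list had 7 lower, 2 higher and a median of -0.13. OPT3 (AT4G16370), a phloem transporter of iron and copper, had 8.69, 10.1 and 6.31 CPM in Col-0, against 109, 106 and 102 CPM in Col-0-b (log2 difference -3.53, SE 0.14, adjusted p = 2.58e-06), a 12.6-fold higher mean in Col-0-b. BHLH39 (AT3G56980), a transcription factor partner of FIT, had 3.77, 3.35 and 3.37 CPM in Col-0, against 39.1, 44.1 and 39.5 CPM in Col-0-b (log2 difference -3.22, SE 0.11, adjusted p = 7.77e-07), and its relative bHLH38 had 2.63, 0.566 and 0.880 CPM in Col-0, against 4.29, 7.13 and 3.52 CPM in Col-0-b (-1.40, adjusted p = 0.0112). NAS4, a nicotianamine synthase, had 1.91, 1.70 and 0.587 CPM in Col-0, against 9.59, 10.3 and 10.8 CPM in Col-0-b (-2.27, adjusted p = 0.000133). The ferric reductase FRO3 had 64.4, 57.8 and 58.7 CPM in Col-0, against 124, 144 and 121 CPM in Col-0-b (-1.09, adjusted p = 3.96e-05). BTS, a ubiquitin ligase that restrains the iron response, was also lower, by a small amount (-0.32), as was F6'H1, which makes iron-mobilising coumarins (-0.70). FRD3, a citrate exporter that loads iron into the xylem and no member of this list, had 32.5, 25.1 and 24.0 CPM in Col-0, against 76.8, 80.9 and 85.8 CPM in Col-0-b (-1.55, adjusted p = 3.16e-05). The main iron transporter IRT1 had 371, 399.6 and 259 CPM in Col-0, against 214, 384 and 183 CPM in Col-0-b, the reductase FRO2 206, 160.0 and 112 CPM in Col-0, against 91.2, 191 and 79.2 CPM in Col-0-b, and FIT, the master regulator, 37.0, 47.6 and 52.2 CPM in Col-0, against 51.2, 47.4 and 47.7 CPM in Col-0-b. These 3 overlapped between the sets, and their adjusted p were 0.309, 0.389 and 0.495.

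Nitrogen genes went both ways. Of 19 tested members, 5 were higher in Col-0, 6 were lower and 8 were not called (57.9% called, beside 40.8% of all tested genes; median difference -0.06); leaving out 1 library gave 2 to 7 higher, 2 without Col-0-b replicate 1 or 2 and 3 without Col-0 replicate 2 or Col-0-b replicate 3, and 6 to 7 lower. NRT2.1 (AT1G08090), the main high-affinity nitrate transporter, had 4.06, 2.07 and 3.08 CPM in Col-0, against 41.4, 35.7 and 47.0 CPM in Col-0-b (log2 difference -3.40, SE 0.19, adjusted p = 1.19e-05). Its partner protein NRT3.1 had 32.8, 36.6 and 45.8 CPM in Col-0, against 141, 125 and 145 CPM in Col-0-b (-1.82, adjusted p = 2.33e-05). The ammonium transporters AMT1;2 (AT1G64780) and AMT1;3 had 87.9, 75.4 and 72.6 and 90.9, 109 and 129 CPM in Col-0, against 407, 429 and 434 and 332, 326 and 335 CPM in Col-0-b (differences -2.42 and -1.60). All 4 sets of values were separate. GLN1;2, a cytosolic glutamine synthetase, was abundant and lower in Col-0, with 1770.3, 1764 and 1798 CPM in Col-0, against 4240.1, 3625 and 3686 CPM in Col-0-b (-1.11, adjusted p = 2.33e-05). LBD37, a nitrogen-responsive repressor, was lower too (-0.97, adjusted p = 9.07e-05).

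Among the genes higher in Col-0, NIA1 (AT1G77760), a nitrate reductase, had 435, 461 and 176 CPM in Col-0, against 45.4, 51.5 and 34.8 CPM in Col-0-b (log2 difference 2.89, SE 0.41, adjusted p = 0.00333), and Col-0 replicate 3, the lowest of its set, was still above Col-0-b. The other nitrate reductase, NIA2, had 582, 567 and 315 CPM in Col-0, against 249, 273 and 259 CPM in Col-0-b (0.85, adjusted p = 0.0288), and its call was lost when any library other than Col-0 replicate 3 was left out. Nitrite reductase NIR1 had 572, 416 and 366 CPM in Col-0, against 267, 258 and 259.7 CPM in Col-0-b (0.76, adjusted p = 0.0045). BT2, a nitrate- and sugar-responsive scaffold protein, was among the 10 largest upward differences of called, non-overlapping genes above the median level, with 81.1, 171 and 171 CPM in Col-0, against 23.5, 20.2 and 13.5 CPM in Col-0-b (2.78, adjusted p = 0.00217). The dual-affinity nitrate transporter NRT1.1 was not called, with 834, 720.3 and 629 CPM in Col-0, against 767, 738 and 749 CPM in Col-0-b.

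Of 15 tested phosphate starvation genes, 7 were lower in Col-0, 1 was higher and 7 were not called (53.3% called, beside 40.8% of all tested genes; median difference -0.20, or -0.37 without Col-0 replicate 1). The phosphate transporter PHT1;1 (AT5G43350) had 139, 218 and 221 CPM in Col-0, against 558, 564 and 570.2 CPM in Col-0-b (log2 difference -1.58, SE 0.17, adjusted p = 0.000383). The acid phosphatase PAP17 had 17.8, 11.8 and 10.6 CPM in Col-0, against 47.5, 43.5 and 41.6 CPM in Col-0-b (-1.68, adjusted p = 0.00014), and the phosphate sensor gene SPX1 had 18.5, 12.6 and 17.8 CPM in Col-0, against 26.1, 24.7 and 26.4 CPM in Col-0-b (-0.65). The member called higher was AT4, a non-coding RNA that sequesters a phosphate microRNA, with 62.3, 63.6 and 56.3 CPM in Col-0, against 19.9, 18.5 and 28.9 CPM in Col-0-b (1.42, adjusted p = 0.000205). The galactolipid and sulfolipid synthesis genes MGD2, MGD3, SQD1 and SQD2 were not called.

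Sulfur starvation genes were lower in 6 of 11 tested members and higher in 1 (63.6% called, beside 40.8% of all tested genes). Their median difference was -0.69. The sulfate transporter SULTR2;1 (AT5G10180), which moves sulfate within the vascular tissue, had 25.0, 14.6 and 15.4 CPM in Col-0, against 90.05, 112 and 78.7 CPM in Col-0-b (log2 difference -2.32, SE 0.21, adjusted p = 0.000214). LSU1, a short protein that accumulates when sulfur is scarce, had 16.1, 7.21 and 3.89 CPM in Col-0, against 47.7, 65.0 and 44.6 CPM in Col-0-b (-2.58, adjusted p = 0.00752). The root surface transporter SULTR1;1 was higher in Col-0, with 5.39, 4.48 and 3.59 CPM in Col-0, against 1.74, 2.06 and 1.76 CPM in Col-0-b (0.93, adjusted p = 0.00335). Col-0 replicate 1 lay near Col-0-b in several members: LSU2 had 42.2, 15.0 and 10.7 CPM in Col-0, against 40.7, 50.9 and 42.5 CPM in Col-0-b (adjusted p = 0.11) and the adenylylsulfate reductase APR1 had 239, 143 and 114 CPM in Col-0, against 235, 238 and 227 CPM in Col-0-b (adjusted p = 0.131). Without that library 10 members were called lower, and without any other single library 4.

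Genes of abscisic acid, cold and dehydration had the highest share of called members among the 34 lists, 84.6% beside 40.8% of all tested genes. Of 13 tested members, 11 were higher in Col-0 and 0 lower (median difference 1.36), and 10 or 11 were higher when any single library was left out, with 1 lower without Col-0 replicate 1. The desiccation-responsive gene RD29A (AT5G52310), listed as LTI78, had 52.0, 38.4 and 37.8 CPM in Col-0, against 4.58, 4.24 and 4.45 CPM in Col-0-b (log2 difference 3.00, SE 0.14, adjusted p = 4.69e-06). The dehydrins COR47 (AT1G20440), ERD14 and XERO2 (listed as LTI30) were abundant, with 1118, 1174 and 1204, 917, 1032 and 1163 and 265, 307 and 298 CPM in Col-0, against 340.1, 286 and 368, 473, 423 and 422 and 83.3, 69.3 and 69.3 CPM in Col-0-b. Their differences were 1.82, 1.23 and 1.96, and within each set the libraries stayed close together. KIN1 and KIN2, tandem copies of a cold-induced gene whose reads may be shared, had 111, 68.3 and 50.2 and 219, 185 and 149.9 CPM in Col-0, against 9.69, 9.73 and 8.56 and 48.0, 65.3 and 51.4 CPM in Col-0-b. NCED3, the rate-limiting enzyme of stress-induced abscisic acid synthesis, had 15.3, 22.4 and 23.0 CPM in Col-0, against 6.70, 7.72 and 6.99 CPM in Col-0-b (1.36, adjusted p = 0.000271). HAI1, a phosphatase induced by abscisic acid, was higher by 1.08, and P5CS1, the proline synthesis enzyme, by 0.63. The transcription factor ABF3 was not called, with 106, 79.3 and 74.0 CPM in Col-0, against 93.2, 87.9 and 87.4 CPM in Col-0-b.

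Touch and wounding genes, jasmonate genes and sugar starvation genes were higher in Col-0 as well, but chiefly in Col-0 replicates 2 and 3. Relative to each gene's mean over the 6 libraries, the median member of the touch list lay at -0.26, 0.79 and 0.90 in Col-0 replicates 1, 2 and 3, and at -0.45, -0.57 and -0.48 in Col-0-b. The jasmonate list lay at -0.29, 0.75 and 0.88 in Col-0, against -0.29, -0.40 and -0.40 in Col-0-b. The sugar starvation list lay at -0.12, 0.53 and 0.82 in Col-0, against -0.21, -0.38 and -0.48 in Col-0-b. Col-0 replicate 1 therefore sat with or near Col-0-b in the median member of these lists, whereas in the abscisic acid list all 3 Col-0 libraries lay between 0.74 and 0.85.

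Of 17 touch and wounding genes, 8 were higher and 2 lower (58.8% called, beside 40.8% of all tested genes, median difference 0.96). Without Col-0 replicate 1, 13 were higher, and 5 without Col-0 replicate 2 or any Col-0-b replicate. The cell wall enzyme TCH4 (AT5G57560) had 20.099, 43.2 and 20.5 CPM in Col-0, against 1.45, 1.77 and 1.91 CPM in Col-0-b (log2 difference 3.33, SE 0.27, adjusted p = 6.17e-05), with all Col-0 libraries well above Col-0-b. The calmodulin-like genes TCH3 and TCH2 had 26.9, 49.3 and 38.4 and 34.4, 36.8 and 33.1 CPM in Col-0, against 6.65, 6.01 and 6.99 and 14.8, 13.6 and 14.7 CPM in Col-0-b (differences 2.34 and 1.22). The stress-responsive transcription factor WRKY40 had 4.25, 24.1 and 27.7 CPM in Col-0, against 1.01, 2.18 and 1.52 CPM in Col-0-b (2.63, adjusted p = 0.0261). Its call was lost when any library other than Col-0 replicate 1 was left out. The ethylene response factors ERF104 (-0.42) and ERF5 (-0.29) were lower in Col-0, and the call of ERF5 was lost in the same settings.

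Of 15 jasmonate genes, 8 were higher and 2 lower (66.7% called, beside 40.8% of all tested genes). The median difference was 0.59, or 0.98 without Col-0 replicate 1. Called higher were 12 without Col-0 replicate 1, 4 without Col-0 replicate 2 or Col-0-b replicate 3, and 5 without Col-0-b replicate 1 or 2. The repressor gene JAZ10 (AT5G13220) had 4.73, 17.1 and 19.4 CPM in Col-0, against 0.578, 0.766 and 0.783 CPM in Col-0-b (log2 difference 2.91, SE 0.45, adjusted p = 0.00217), and JAZ9 had 5.11, 15.1 and 17.5 CPM in Col-0, against 2.80, 2.77 and 1.86 CPM in Col-0-b (1.82, adjusted p = 0.00936). AOC2, an allene oxide cyclase of jasmonate synthesis, was higher in all 3 Col-0 libraries, with 5.73, 8.72 and 5.79 CPM in Col-0, against 0.771, 1.24 and 1.17 CPM in Col-0-b (1.90, adjusted p = 0.000167). LOX3, a lipoxygenase, missed the level filter and was not tested; it had 0.143, 5.47 and 11.6 CPM in Col-0, against 0.0964, 0 and 0 CPM in Col-0-b. The storage protein genes VSP1 and VSP2, classic jasmonate outputs, were lower in Col-0, with 109.9, 121 and 151 and 4.201, 5.47 and 8.80 CPM in Col-0, against 205, 224 and 191 and 22.8, 15.2 and 14.8 CPM in Col-0-b (differences -0.70 and -1.40).

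Among 12 sugar starvation genes, 5 were higher and 2 lower (58.3% called, beside 40.8% of all tested genes), and 8 were higher without Col-0 replicate 1. The median difference was 0.76, or 0.46 without Col-0 replicate 3. ASN1 (AT3G47340), the dark-induced asparagine synthetase, had 17.9, 17.0 and 16.6 CPM in Col-0, against 3.18, 3.07 and 1.03 CPM in Col-0-b (log2 difference 2.48, SE 0.26, adjusted p = 0.000199). The trehalose-phosphate synthase-like genes TPS8, TPS9 and TPS11 differed by 1.38, 1.15 and 1.47; TPS8 had 94.8, 146 and 190.4 CPM in Col-0, against 62.9, 49.99 and 45.8 CPM in Col-0-b. DIN10 had 139.7, 430.4 and 470.0 CPM in Col-0, against 210.4, 181 and 136 CPM in Col-0-b (adjusted p = 0.267). DIN2, a beta-glucosidase gene, went the other way, with 3.82, 1.46 and 3.81 CPM in Col-0, against 53.6, 34.2 and 23.0 CPM in Col-0-b (-3.22, adjusted p = 0.000689).

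**Figure D3:**
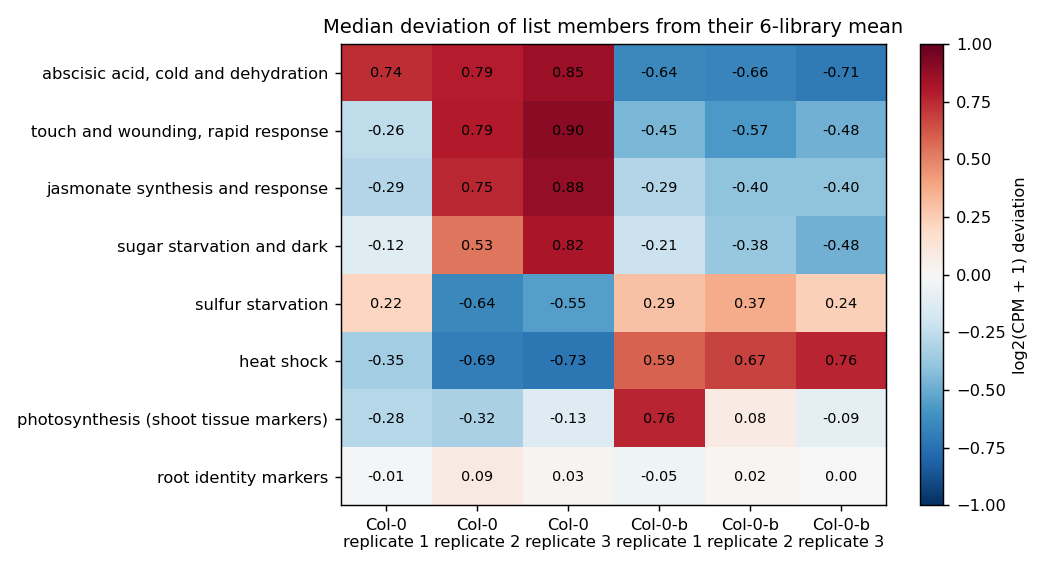
Median deviation of the tested members of 8 lists (rows) from each gene's mean over the 6 libraries, on the log2(CPM + 1) scale, with a column for each library, Col-0 left of Col-0-b. The abscisic acid and heat shock lists differ between sets in every library, the touch, jasmonate and sugar lists are high in Col-0 replicates 2 and 3 only, and root identity markers stay within -0.05 to 0.09.

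Of the 10 largest downward differences among called, non-overlapping genes above the median level, 5 were protein-coding genes whose levels varied widely among the Col-0 libraries. CYP71A12 (AT2G30750), a cytochrome P450 of indolic defence compounds with a near-identical neighbour, CYP71A13, had 39.0, 18.6 and 122 CPM in Col-0, against 874, 859 and 775 CPM in Col-0-b (log2 difference -4.19, SE 0.70, adjusted p = 0.00853). CYP82C2 (AT4G31970), which makes a cyanogenic indole derivative, had 0.764, 0.990 and 26.5 CPM in Col-0, against 162, 125 and 168 CPM in Col-0-b (-5.04, adjusted p = 0.0247). AT1G26390, which lies in a cluster of like genes, had 8.02, 2.03 and 43.1 CPM in Col-0, against 329, 294 and 274 CPM in Col-0-b (-4.81), and AT5G38910 had 6.30, 0.802 and 26.3 CPM in Col-0, against 395, 380.2 and 307 CPM in Col-0-b (-5.66). TI1, a trypsin inhibitor gene, had 8.07, 2.12 and 9.75 CPM in Col-0, against 151, 128 and 122 CPM in Col-0-b (-4.32, adjusted p = 0.00143). In all 5 the highest Col-0 library lay below the lowest Col-0-b library, and Col-0 replicate 3 was the highest Col-0 library. Among the fits that left out a library, the one without Col-0 replicate 1 lost the calls of CYP82C2, AT1G26390 and AT5G38910; those of CYP82C2 and AT1G26390 were also lost without Col-0-b replicate 1 or 2, and that of CYP82C2 without Col-0-b replicate 3. The salicylate and pattern-triggered list had 12 tested members, of which 1 was higher and 3 lower (33.3% called, beside 40.8% of all tested genes); its median difference of -0.20 was -0.06 without Col-0 replicate 1, -0.41 without Col-0 replicate 2 and -0.32 without Col-0-b replicate 3. PAD3, the last enzyme of camalexin synthesis, was evenly lower, with 15.5, 13.5 and 12.4 CPM in Col-0, against 27.3, 30.6 and 31.6 CPM in Col-0-b (-1.06, adjusted p = 0.000148). The regulator CBP60G had 1.098, 4.15 and 22.4 CPM in Col-0, against 45.6, 42.4 and 34.9 CPM in Col-0-b, and WRKY33 had 70.1, 136 and 112 CPM in Col-0, against 103, 103 and 92.1 CPM in Col-0-b; neither was called.

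Heat shock genes were lower in Col-0 in 7 of 11 tested members and higher in 1 (72.7% called, beside 40.8% of all tested genes). Their median difference was -1.35. The chaperone HSP90.1 (AT5G52640) had 12.7, 10.1 and 10.6 CPM in Col-0, against 86.0, 93.3 and 108 CPM in Col-0-b (log2 difference -2.99, SE 0.11, adjusted p = 1.63e-06), an 8.58-fold higher mean in Col-0-b. HSP70 had 68.8, 30.9 and 22.7 CPM in Col-0, against 259, 287 and 300.0 CPM in Col-0-b (-2.91, adjusted p = 0.00307), and HSP101, a disaggregase, had 20.5, 12.5 and 7.85 CPM in Col-0, against 33.5, 32.1 and 36.1 CPM in Col-0-b (-1.35, adjusted p = 0.00975). The heat shock factor HSFA2 had 0.477, 0.236 and 0.587 CPM in Col-0, against 3.86, 5.66 and 7.53 CPM in Col-0-b (-2.19, adjusted p = 0.000168), and the coactivator MBF1C had 12.3, 5.09 and 3.45 CPM in Col-0, against 25.0, 23.5 and 24.1 CPM in Col-0-b (-1.82). HSFA7A ran against the list, with 35.3, 49.6 and 47.7 CPM in Col-0, against 24.3, 23.5 and 18.1 CPM in Col-0-b (0.97, adjusted p = 0.00135). Small heat shock proteins were scarce: HSP18.2 was not called, and HSP17.6A, HSP17.6II, HSP17.4 and HSP21 were under 0.5 CPM in every library. Protein folding genes of the endoplasmic reticulum were mixed, with 3 higher (1 without Col-0-b replicate 2) and 2 lower of 10 (50% called). The chaperone gene BIP3 had 3.87, 3.96 and 5.35 CPM in Col-0, against 1.302, 0.943 and 1.03 CPM in Col-0-b (1.36, adjusted p = 0.000549). Of 12 hypoxia genes, 5 were higher and 1 lower (50% called, beside 40.8% of all tested genes, median difference 0.46). The haemoglobin HB1 had 23.5, 18.15 and 17.2 CPM in Col-0, against 5.16, 7.37 and 6.21 CPM in Col-0-b (1.51), and ADH1, alcohol dehydrogenase, had 8.74, 9.76 and 7.26 CPM in Col-0, against 5.06, 4.01 and 4.21 CPM in Col-0-b (0.82).

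Root hair genes were higher in 9 of 16 tested members and lower in 1 (62.5% called, beside 40.8% of all tested genes). Their median difference was 0.51. RHS15 (AT4G25220), listed as G3Pp2, a glycerol-3-phosphate transporter family gene, had 30.6, 28.5 and 17.5 CPM in Col-0, against 2.46, 4.42 and 2.397 CPM in Col-0-b (log2 difference 2.69, SE 0.25, adjusted p = 0.000113). COW1, a phosphatidylinositol transfer protein of hair tip growth, had 51.4, 51.3 and 39.7 CPM in Col-0, against 11.8, 12.9 and 11.5 CPM in Col-0-b (1.89, adjusted p = 1.91e-05), and MRH6 had 28.1, 20.4 and 17.0 CPM in Col-0, against 6.41, 5.54 and 5.43 CPM in Col-0-b (1.72). RSL4, the transcription factor that sets hair length, had 15.3, 18.3 and 13.9 CPM in Col-0, against 7.95, 6.19 and 6.85 CPM in Col-0-b (1.07, adjusted p = 0.00048). The hair cell markers EXPA7 and COBL9 were not called: EXPA7 had 42.3, 45.4 and 37.4 CPM in Col-0, against 35.9, 39.0 and 38.3 CPM in Col-0-b, and COBL9 (listed as SHV2) had 42.0, 34.0 and 22.9 CPM in Col-0, against 28.1, 29.2 and 35.4 CPM in Col-0-b. RHD6, which specifies hair cells upstream of RSL4, had 18.5, 15.8 and 11.4 CPM in Col-0, against 20.4, 19.3 and 23.2 CPM in Col-0-b, and its call as lower (adjusted p = 0.0487) was lost when any library other than Col-0 replicate 1 was left out. In bulk roots, fewer cells of a type and less RNA per cell cannot be told apart.

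Auxin carriers of the uptake family were lower in Col-0 together, while several early auxin response genes were higher. Of 19 genes of auxin synthesis and transport, 9 were lower and 3 higher (63.2% called, beside 40.8% of all tested genes, median difference -0.19). The influx carriers AUX1, LAX1, LAX2 and LAX3 were all lower, by differences of -0.76, -0.56, -0.88 and -0.52; AUX1 (AT2G38120) had 145, 149.5 and 149.8 CPM in Col-0, against 245, 240.4 and 271 CPM in Col-0-b (adjusted p = 6.48e-05). The efflux carrier PIN2 (listed as EIR1) was not called, with 109.9, 114 and 114 CPM in Col-0, against 112, 107 and 126 CPM in Col-0-b. The YUCCA auxin synthesis genes went both ways, YUC6 (-0.84) and YUC9 (-0.83) lower and YUC3 (0.68) and YUC8 (0.78) higher. In the auxin response list, 6 of 15 were higher and 0 lower (40% called, beside 40.8% of all tested genes). The median difference was 0.44, and 0.16 without Col-0 replicate 2, where 1 was lower. IAA3 (AT1G04240), listed as SHY2, a repressor of auxin signalling, had 34.0, 31.3 and 30.9 CPM in Col-0, against 10.1, 7.72 and 10.5 CPM in Col-0-b (log2 difference 1.67, SE 0.13, adjusted p = 3.31e-05), and its relative IAA2 had 90.9, 101 and 97.1 CPM in Col-0, against 33.3, 31.2 and 33.9 CPM in Col-0-b (1.53, adjusted p = 6.59e-06). The auxin-conjugating enzyme gene GH3.6 was higher by 0.85, while GH3.3 was not called (0.22, adjusted p = 0.41).

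Cytokinin response genes included 5 higher and 1 lower of 15 (40% called, beside 40.8% of all tested genes), with a median difference of -0.02 that became -0.19 without Col-0 replicate 1 and 0.40 without Col-0 replicate 3. The type-A response regulators ARR5, ARR7, ARR8 and ARR9, which are induced by cytokinin and dampen its signal, differed by 1.08, 0.75, 0.74 and 0.91; ARR5 had 114, 87.7 and 70.9 CPM in Col-0, against 43.4, 40.6 and 41.2 CPM in Col-0-b (adjusted p = 0.000877). ARR4 and ARR6 were not called. The cytokinin oxidase CKX2 (AT2G19500) stood out downward, with 0, 0 and 1.54 CPM in Col-0, against 15.1, 14.3 and 12.4 CPM in Col-0-b (log2 difference -3.45, SE 0.34, adjusted p = 0.000173); this call was lost with DESeq2 on the reads, and the 2 Col-0 libraries at 0 make its fitted size depend on the pseudocount.

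Among tissue and development lists, xylem and secondary wall genes were lower in 7 of 13 and higher in 1 (median difference -0.33). Of these 13, 61.5% were called, beside 40.8% of all tested genes. The cellulose synthases of the secondary wall CESA4 and CESA8 were lower by small amounts, CESA4 with 79.5, 76.2 and 67.3 CPM in Col-0, against 101, 89.4 and 106 CPM in Col-0-b (-0.41) and CESA8 with 40.4, 39.4 and 37.9 CPM in Col-0, against 54.3, 45.7 and 55.4 CPM in Col-0-b (-0.39). IRX10, a xylan synthase, differed by -0.89. The xylem proteases XCP1 and XCP2 ran the other way, XCP1 called higher (0.35) and XCP2 not called (0.18). Without Col-0-b replicate 1 or 3, 4 xylem genes were lower. Phloem genes showed no shared direction (4 higher, 1 lower of 13, or 38.5% called; median 0.04), with 1 higher without Col-0 replicate 2 and 2 without Col-0 replicate 3 or Col-0-b replicate 2. The sucrose exporters SWEET11 (AT3G48740) and SWEET12 had 8.45, 12.3 and 13.9 and 5.82, 13.4 and 15.0 CPM in Col-0, against 0.868, 0.766 and 0.293 and 0.241, 0.825 and 0.293 CPM in Col-0-b (differences 2.92 and 3.02). The companion cell sucrose transporter SUC2 had 45.3, 97.4 and 86.9 CPM in Col-0, against 99.6, 88.6 and 102 CPM in Col-0-b, with Col-0 replicate 1 the lowest, and was not called.

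Casparian strip genes gave 2 higher and 2 lower of 10 (40% called, beside 40.8% of all tested genes), and 1 higher and 0 lower without Col-0 replicate 2 or Col-0-b replicate 2 or 3, with MYB36, the endodermal differentiation factor, at 27.0, 26.8 and 30.4 CPM in Col-0, against 16.4, 16.4 and 14.7 CPM in Col-0-b (0.79, adjusted p = 0.000373) and the membrane proteins CASP1 and CASP2 not called. Suberin genes gave 4 higher and 3 lower of 14 (50% called, median -0.16). Without Col-0 replicate 2 or Col-0-b replicate 1 or 3, 2 were higher, and without Col-0-b replicate 2, 1 was lower. Among them, FAR5, a fatty acid reductase, had 199.8, 161 and 150.4 CPM in Col-0, against 80.2, 98.1 and 78.9 CPM in Col-0-b (0.98). Its relative FAR4 had 106, 86.4 and 90.3 CPM in Col-0, against 127, 127 and 119.6 CPM in Col-0-b (-0.40). Lateral root genes gave 6 higher and 5 lower of 20 (55% called, median 0.00), with 3 lower without Col-0-b replicate 2 or 3. Their auxin response factors differed in sign, ARF19 at 0.45 and ARF7 at -0.27, and the expansin EXPA14 had 33.2, 22.8 and 30.8 CPM in Col-0, against 58.6, 54.4 and 67.8 CPM in Col-0-b (-1.04). Root meristem identity genes gave 3 higher and 1 lower of 12 (33.3% called, median -0.01). PLT3 and BBM, stem cell niche transcription factors, were higher (0.63 and 0.62), while PLT1, PLT2, WOX5 and SCR were not called. ACR4, a member of this list and of the lateral root list, was matched by symbol alone to AT1G69040. Whether that locus is the root gene meant by the lists was not tested.

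Mitotic genes were higher in 7 of 20 and lower in 0 (35% called, beside 40.8% of all tested genes; median 0.15, or 0.25 without Col-0 replicate 2). KNOLLE, the syntaxin of cell plate formation, had 33.3, 30.8 and 33.4 CPM in Col-0, against 13.8, 13.9 and 15.6 CPM in Col-0-b (log2 difference 1.12, SE 0.09, adjusted p = 4.98e-05), and the mitotic cyclins CYCB2;1 and CYCB1;2 differed by 0.83 and 0.52. Of 19 S-phase genes, 1 was higher and 2 lower (15.8% called; median -0.09), and none of MCM2 to MCM7, which unwind DNA at replication origins, was called. TSO2, a ribonucleotide reductase subunit, had 46.9, 42.3 and 48.5 CPM in Col-0, against 75.8, 76.7 and 85.0 CPM in Col-0-b (-0.77, adjusted p = 0.00015).

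Glucosinolate synthesis genes were higher in 7 of 16 and lower in 3 (62.5% called, beside 40.8% of all tested genes). Their median was 0.25, or 0.13 without Col-0 replicate 1. Without Col-0 replicate 2 or Col-0-b replicate 2, 3 were higher, and 4 without Col-0-b replicate 1. Without Col-0-b replicate 1 or 2, 1 was lower. CYP83B1, of the indolic branch, had 708, 923 and 771 CPM in Col-0, against 386, 356 and 414 CPM in Col-0-b (1.05, adjusted p = 0.000112), and MAM3, of methionine chain elongation, had 336, 328 and 224 CPM in Col-0, against 156, 158 and 139 CPM in Col-0-b (0.95). MYB28, a regulator of the aliphatic branch, was lower, with 49.2, 41.3 and 37.7 CPM in Col-0, against 79.0, 80.1 and 76.1 CPM in Col-0-b (-0.87, adjusted p = 0.000211). Flavonoid and light response genes gave 3 higher and 2 lower of 11 (45.5% called, near the share of all tested genes, median 0.08). Flavonol synthase FLS1 had 132, 64.3 and 66.3 CPM in Col-0, against 25.9, 33.9 and 27.1 CPM in Col-0-b (1.49), and the light-induced gene ELIP1 had 16.9, 5.94 and 7.04 CPM in Col-0, against 31.1, 36.2 and 30.2 CPM in Col-0-b (-1.74).

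The central clock genes CCA1, LHY and TOC1 were not called, while several of their partners were. Of 9 morning genes, 0 were higher and 4 lower (44.4% called, beside 40.8% of all tested genes; median -0.19, and -0.42 without Col-0 replicate 1 or -0.03 without Col-0 replicate 2): LNK2 (-0.53), LNK3 (-0.59), PRR9 (-0.98) and RVE8 (-0.54). PRR9 and RVE8 lost their calls when certain libraries were left out, Col-0 replicate 2 and Col-0-b replicate 1 in both and Col-0-b replicate 3 in RVE8. The morning factor CCA1 had 37.9, 21.8 and 24.5 CPM in Col-0, against 30.2, 29.5 and 34.1 CPM in Col-0-b. Of 12 genes in the evening list, 4 were higher and 2 lower (50% called), with 2 higher without any 1 of the Col-0-b replicates. The median was 0.17, or 0.28 without Col-0 replicate 1. GI, which acts in flowering and clock output, had 88.5, 78.0 and 79.9 CPM in Col-0, against 136, 135 and 134 CPM in Col-0-b (-0.71, adjusted p = 0.000103), and ELF3, of the evening complex, was higher (0.49). TOC1, the central evening factor, had 44.9, 63.5 and 61.6 CPM in Col-0, against 53.0, 45.0 and 45.9 CPM in Col-0-b (adjusted p = 0.21). RVE2, in that list although its relatives act in the morning, was higher by 0.87.

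NF-Y is a trimeric transcription factor of A, B and C subunits that binds the CCAAT box, and NF-YA2 is the subunit the series is built around. NF-YA2 had 22.8, 19.6 and 14.7 CPM in Col-0, against 27.4, 27.4 and 24.6 CPM in Col-0-b (log2 difference -0.47, SE 0.15, adjusted p = 0.0283), and this call as lower was lost without Col-0 replicate 2, without any Col-0-b replicate, and with no level filter. Its paralogue NF-YA10 had 6.54, 3.54 and 3.81 CPM in Col-0, against 5.74, 5.36 and 7.24 CPM in Col-0-b (log2 difference -0.37, SE 0.22, adjusted p = 0.202) and was not called. Of 24 tested NF-Y genes, 6 were higher and 3 lower (37.5% called, beside 40.8% of all tested genes; median difference 0.19; 5 lower without Col-0 replicate 1 and 1 without Col-0-b replicate 1 or 2). NF-YB11 (1.06) and NF-YC12 (-1.03) differed most, with 12.1, 10.1 and 9.46 CPM in Col-0, against 4.63, 3.18 and 6.16 CPM in Col-0-b, and 4.54, 3.301 and 3.23 CPM in Col-0, against 7.52, 9.49 and 8.66 CPM in Col-0-b.

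**Figure D4:**
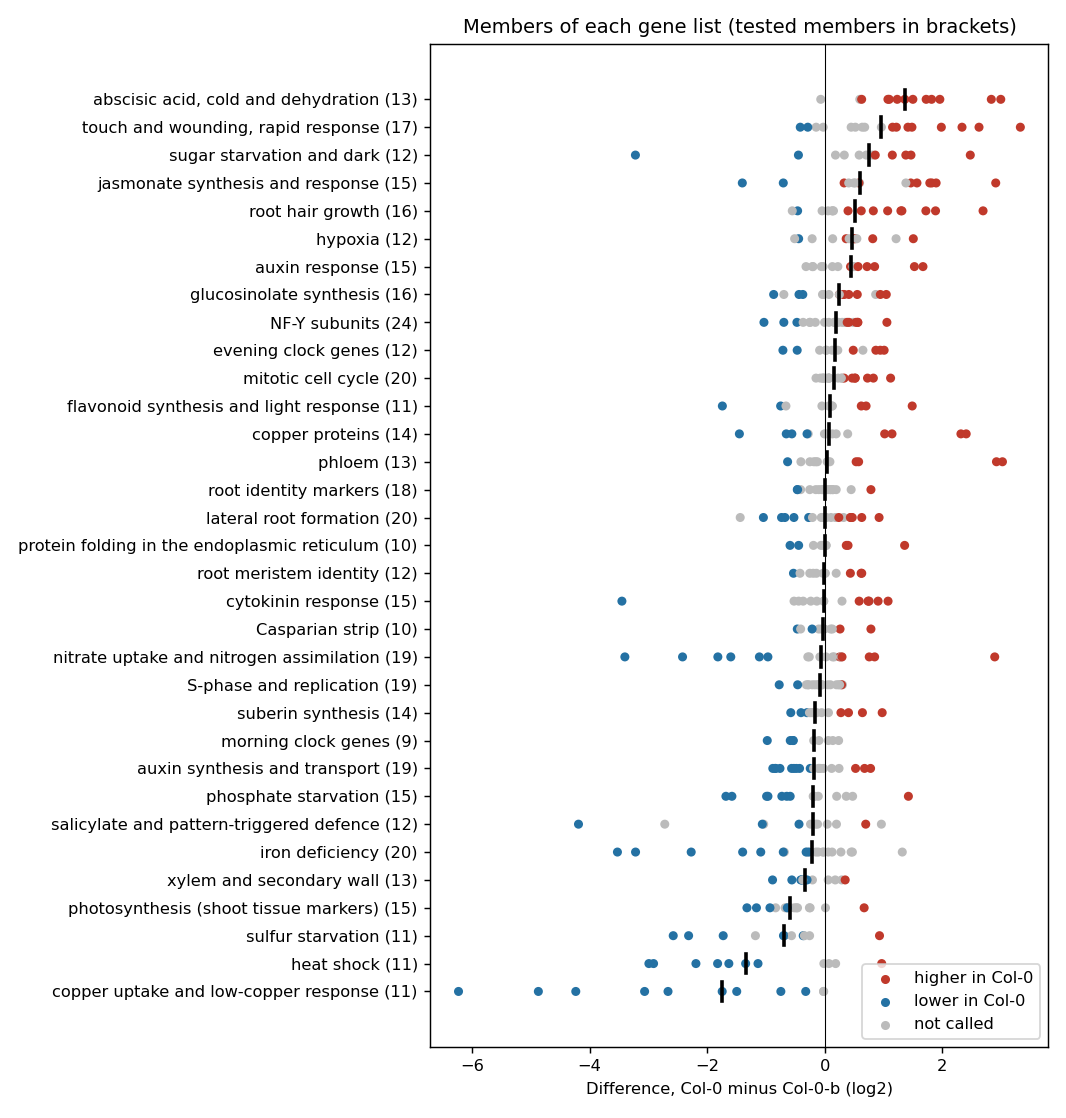
Difference Col-0 minus Col-0-b on the log2(CPM + 1) scale (x) for every tested member of the gene lists (rows, sorted by the list's median, drawn as a black bar). The list of genes called earlier between bamboo and Col-0-b is not drawn. Red members were called higher in Col-0, blue lower, grey not called. The copper uptake list has the lowest median (-1.74) and the abscisic acid, cold and dehydration list the highest (1.36). Both copper lists were chosen after the values were seen. Among the lists chosen earlier, heat shock has the lowest median (-1.35).

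Genes that earlier results of these data had called between bamboo and Col-0-b were also looked up, since Col-0-b is their reference. Of 27, 26 were tested here, and in Col-0 8 were called higher and 11 lower, or 73.1% of the tested members beside 40.8% of all tested genes. The bamboo and the Col-0 comparisons share the Col-0-b libraries. A gene whose Col-0-b values lie apart or close together is favoured in both, so the 73.1% cannot be read as an excess. Their values are set side by side only. MBD10 (AT1G15340), a methyl-CpG-binding domain protein, had 128, 134 and 142 CPM in Col-0 and 66.0 and 62.8 CPM in bamboo, against 42.8, 43.3 and 39.1 CPM in Col-0-b. AT1G56660 had 62.3, 83.3 and 149.7 CPM in Col-0 and 18.1 and 15.0 CPM in bamboo, against 9.16, 9.08 and 9.64 CPM in Col-0-b. CBL8, a calcium sensor, had 3.72, 4.72 and 4.47 CPM in Col-0 and 4.83 and 4.77 CPM in bamboo, against 2.07, 1.00 and 1.27 CPM in Col-0-b. In these 3 both Col-0 and bamboo lay above Col-0-b in every library.

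Other members placed Col-0 and bamboo on the low side of Col-0-b. FRD3 had 58.1 and 58.9 CPM in bamboo, between its levels in Col-0 and Col-0-b given above. EXPA14 had 36.2 and 42.2 CPM in bamboo. The RNA AT3G13277 had 3.63, 2.78 and 1.98 CPM in Col-0 and 3.999 and 4.97 CPM in bamboo, against 10.03, 8.67 and 9.44 CPM in Col-0-b. Further members lay on opposite sides. HSP90.1 and MBF1C, low in Col-0, had 149 and 142 and 44.4 and 35.01 CPM in bamboo, above Col-0-b, and SUS1, a sucrose synthase, had 77.5, 78.1 and 62.8 CPM in Col-0 and 31.4 and 35.7 CPM in bamboo, against 53.6, 47.2 and 50.2 CPM in Col-0-b. In a last kind bamboo lay farther from Col-0-b than Col-0 did. ARP9, an actin-related protein, had 36.4, 31.5 and 35.7 CPM in Col-0 and 14.6 and 18.1 CPM in bamboo, against 46.3, 38.4 and 47.0 CPM in Col-0-b. AT5G35760 had 9.83, 7.03 and 8.43 CPM in Col-0 and 1.41 and 1.48 CPM in bamboo, against 13.8, 15.1 and 15.8 CPM in Col-0-b, and the pseudogene AT5G35935 had 3.91, 4.10 and 6.45 CPM in Col-0 and 31.0 and 32.9 CPM in bamboo, against 4.58, 4.66 and 2.201 CPM in Col-0-b. NRT2.6, a nitrate transporter family gene, was at most 0.386 CPM in all 6 wild-type libraries and was not tested; bamboo had 5.45 and 3.66 CPM.

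The 10 largest upward differences among called, non-overlapping genes above the median level also held MEE14, with 65.6, 133 and 186 CPM in Col-0, against 27.0, 22.5 and 16.6 CPM in Col-0-b (2.39), and, beside AT1G56660 above, 3 protein-coding loci named only by their identifiers. AT2G05510 had 331, 293 and 364 CPM in Col-0, against 62.3, 55.9 and 85.3 CPM in Col-0-b (2.28), alike in the 3 Col-0 libraries. AT3G15450 had 186, 635 and 771 CPM in Col-0, against 132, 88.7 and 67.7 CPM in Col-0-b (2.27, adjusted p = 0.0418), and AT5G65207 had 115, 172 and 176 CPM in Col-0, against 42.2, 41.0 and 26.5 CPM in Col-0-b (2.06). The call of AT3G15450 was lost when any library other than Col-0 replicate 1 was left out. In AT3G15450, AT5G65207 and MEE14 Col-0 replicate 1 was the lowest Col-0 library, as in the sugar starvation list.

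**Figure D5:**
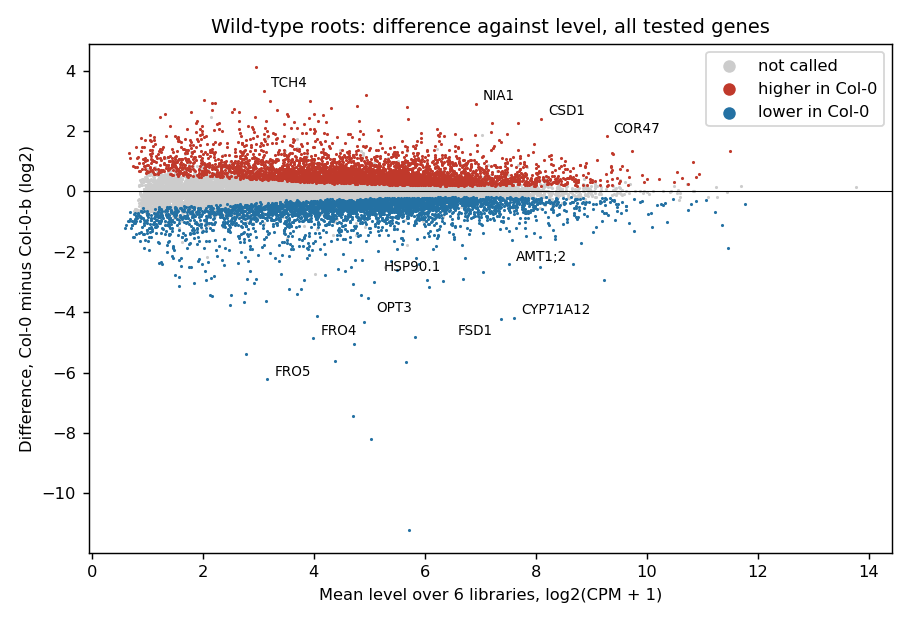
Difference Col-0 minus Col-0-b (y, log2 scale) against the mean of log2(CPM + 1) over the 6 libraries (x) for the 19221 tested genes; red points were called higher in Col-0 (4188), blue lower (3645), grey not called. The lowest point is the ribosomal RNA feature AT3G41768, and the named protein-coding genes FRO5, FRO4, FSD1 and CYP71A12 lie at -6.23, -4.87, -4.24 and -4.19.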

How the data were processed

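Single-end RNA-seq reads of whole roots were processed by the authors before deposit: Trimmomatic, STAR 2.7.2a, featureCounts of Subread 1.6.5 and the build TAIR10 are named in the submitters' processing notes. A stranded mRNA kit was used per the labels, but no source used here gives the strand setting of the counting, and reads of overlapping antisense genes cannot be assigned with certainty. The deposited Col-0 values are raw counts. For Col-0-b and bamboo the authors deposited a signal, counts divided by a size factor per library (0.811 to 1.18); in every column 100% of values were whole multiples of 1 step within a tolerance of 0.01, so reads could be recovered. Both tables list the same 37336 features. WT in that table was read as Col-0-b, its only wild-type set. Another 6 columns of the raw count table could not be tied to a label and were not used.

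Each column was scaled to CPM by its own total, which cancels the size factor, so the units of both tables become the same. Differences of log2(CPM + 1) were tested with limma 3.58.1 in R 4.3.3 (trended, robust, set as the only term) on genes with at least 1 CPM in at least 3 libraries, over the 6 wild-type libraries for the sets and over bamboo and Col-0-b for bamboo, with Benjamini-Hochberg adjustment at 0.05. Single shares were compared by exact permutation of libraries. Alternatives were pseudocounts of 0.1 and 5 CPM, no filter and a filter of 5 CPM, TMM-rescaled values, totals without organelle-encoded and ribosomal RNA features, edgeR 4.0.16 quasi-likelihood and DESeq2 1.42.0 on reads, a replicate term, and leaving out each library. The limma step was tested on simulated counts. Counting error only, not library making, is covered by the depth.

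The sets and the 32 gene lists were chosen with earlier results of these data known, and 2 copper lists after the values here were seen. Symbols are usual names, with the RefSeq symbol (table of TAIR10.1, holding 37051 features) where it differs; no coordinates are given. The rule for named genes took NF-YA2 and NF-YA10, the 10 largest differences in each direction among called, non-overlapping genes above the median level, up to 3 called members of each list in the direction of its median, the 27 genes called earlier in bamboo, and any gene at 0 in 1 set and at least 10 CPM in the other, of which there were 0. Other list members were named after their values were seen. Promoter sequences were not used here.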

Additional observations from a re-analysis of the deposited data

How the results depend on the processing

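The 4188 genes higher and 3645 lower in Col-0 became 4160 and 3585 with a pseudocount of 0.1 CPM, 4181 and 3687 with 5 CPM, 3913 and 3663 with no filter, 3888 and 3348 with a filter of 5 CPM, 4033 and 3834 after TMM rescaling, 4119 and 3726 with edgeR and 4009 and 3700 with DESeq2. Leaving out 1 library gave 2858 to 4455 higher and 2377 to 4196 lower, the fewest lower without Col-0-b replicate 2 (2377) or 1 (2381). The counts at 2-fold or more, 589 and 517, fell to 271 and 250 with a pseudocount of 5 CPM, which shrinks the differences of low genes, and ran from 519 to 617 and 415 to 588 when 1 library was left out. Between 66.6% and 99.6% of the calls were shared with each alternative, and 0 of the shared calls changed direction. For bamboo, 15 higher and 12 lower became 4 to 834 and 3 to 1404 when 1 library was left out; the highest, without bamboo replicate 3, rest on a single bamboo library assumed to vary like Col-0-b. Of 121 called genes named by rule, 95 kept their call in each of the 15 alternatives that gave them an adjusted p and 26 lost it in at least 1. Leaving out 1 library gave 0 to 2 higher and 1 to 4 lower S-phase genes (4 without Col-0 replicate 3), 0 to 3 higher and 2 to 4 lower defence genes (3 higher without Col-0 replicate 1), and 0 to 3 lower hypoxia genes (3 without Col-0 replicate 3). Deviations from the set means correlated at -0.21, 0.02 and -0.05 between same-numbered libraries, against -0.10 to 0.15 for different numbers. Deviations within a set are tied to each other through its mean. Whether same-numbered libraries were handled together is not stated by the labels and cannot be read from these values. A fit with a replicate block called 3692 higher and 3256 lower, and did not call CYP82C2, AT1G26390 or AT3G15450, among others. The search for promoter motifs was not run. Col-0 replicate 3, with 13637179 reads, limits the precision of low genes most, where 3 reads equal 0.22 CPM.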
